A study of Mus musculus with 42 samples.

Results

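Lungs of sleep-deficient mice were collected at ZT24 and set against lungs of sleep-deficient mice collected at ZT0, the same clock hour one day earlier. The comparison uses 3 SD ZT24 libraries and 3 SD ZT0 libraries of the 42 in the series. Its genes are those with a mean of at least 0.5 FPKM over these 6 libraries, where FPKM is the authors' fragment count scaled by gene length and by library size. The rule kept 16713 of 54532 genes, of which 13591 were annotated as protein coding. Of these, 512 passed with a mean under 0.5 FPKM at SD ZT24 and 202 passed with a mean under 0.5 FPKM at SD ZT0. Nearest to the limit were Uox at 0.500004 FPKM, which was kept, and Nme2 at 0.4998 FPKM, which was not.

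All mice were wild-type C57BL/6J, under lights that came on at clock hour 8 (ZT0) and went off at clock hour 20 (ZT12). SD mice spent 20 h of each day, from clock hour 14 until clock hour 10, in SD cages, on 2 days. Ctrl mice stayed in home cages. Lungs were collected every 4 h over 24 h, starting at clock hour 8, with SD ZT0 the first collection and SD ZT24 the last. Since the cage period ended at clock hour 10, the labels do not settle whether the SD ZT0 lungs were taken before or after the last cage hours, and SD ZT0 may stand for either. The groups used are SD ZT24, SD ZT0, Ctrl ZT24 and Ctrl ZT0, with 3 libraries each, and all 4 share the strain and the light cycle. Age and sex were not stated. The libraries are given as biological replicates, with no word on whether 1 animal or a pool made each, so p-values measure only the spread between these libraries, which may in part be technical. Each group was collected once, so the day and the collection cannot be told apart.

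The mammalian clock is a feedback loop in which the proteins of Clock, Npas2 and Arntl (also called Bmal1) switch on Per, Cry, Nr1d and Dbp genes, and the PER, CRY and REV-ERB proteins hold that activity back. A transcript set by this loop alone returns to its level after a full cycle, so samples taken at one clock hour on consecutive days ask what else differed. Heat shock factor 1 drives cytosolic chaperone genes and follows body temperature. Corticosterone acts through the glucocorticoid receptor on genes such as Fkbp5, Zbtb16 and Pdk4, and its release follows both the clock and stress.

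The 6 libraries held 25620749 to 29790252 gene-assigned reads, within the 25285525 to 29790252 of the whole series. Defining lung markers were abundant: Sftpc, the type 2 cell surfactant protein C, stood at 23757, 23870 and 20509 FPKM in the SD ZT24 libraries, against 17657, 20686 and 18306 FPKM in the SD ZT0 libraries. The mitochondrial genome took 1.80% to 1.95% of reads at SD ZT24 and 2.85% to 2.97% at SD ZT0. RNA of other tissues differed between the groups. A hepatocyte list of 31 genes, 30 of them measured (kept by the rule), was added after values were seen and so is given with no test. Here and below, sums over a list take every listed gene of the deposited table, also those under the 0.5 FPKM rule. The hepatocyte list summed to 10.5 to 12.1 FPKM in the SD ZT24 libraries and to 252 to 292 FPKM in the SD ZT0 libraries. It summed to 11.2 to 12.2 FPKM at Ctrl ZT24 and 11.2 to 13.3 FPKM at Ctrl ZT0. All 3 SD ZT0 libraries held this liver RNA, so leaving out any 1 of them does not remove it. Its part in genes that liver also expresses was not tested. Cardiac muscle genes (11 listed, 10 measured) summed to 41.7 to 42 FPKM at SD ZT24 and 199 to 223 FPKM at SD ZT0. Adipocyte genes (10 listed, 7 measured) summed to 30.0 to 33.4 FPKM at SD ZT24 and 72.9 to 78.7 FPKM at SD ZT0. Atrial myocardium lines the pulmonary veins, and fat and liver border the lung. In bulk lung, fewer cells of a type and less RNA per cell cannot be told apart.

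Between SD ZT24 and SD ZT0, 6598 of the 16713 genes passed the test (39.5%), with 3476 higher (20.8%) and 3122 lower (18.7%) at ZT24. Passing means a Benjamini-Hochberg adjusted p under 0.05 over all 16713 genes, from limma on log2(FPKM + 1), two-sided. The balance of the directions depended on the scaling: it was 2821 higher and 3672 lower (43.4% higher) with values scaled by total reads, and 3173 higher and 3392 lower with rescaling by median of ratios, against 52.7% higher in the scaling as deposited. Most of these differences were small. The middle of all genes ran from -0.14 to 0.15 on the log2 scale (25th to 75th percentile), and the 5th and 95th percentiles were -0.45 and 0.39. A change of 2-fold or more was called for 185 genes, 29 of them higher (0.174%) and 156 lower (0.933%). The libraries of the 2 days did not overlap for 7712 genes (46.1%).

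The same day-to-day comparison in home-cage lungs, which rests on 6 other libraries, called 2060 genes (12.3%), 1064 higher (6.37%) and 996 lower (5.96%). At 2-fold or more these were 80 higher (0.479%) and 24 lower (0.144%). With only the libraries compared in each fit, 1059 genes were called in Ctrl lungs, beside 4755 in SD lungs. Of the genes called in SD lungs, 180 were called higher in both and 249 lower in both. A further 311 were higher in SD lungs and lower in Ctrl lungs, and 415 were lower in SD lungs and higher in Ctrl lungs. The difference between the SD and the Ctrl change, tested as an interaction, was called for 5437 genes (32.5%), 2864 higher (17.1%) and 2573 lower (15.4%), of which 62 (0.371%) and 242 (1.45%) were at least 2-fold. With values scaled by total reads the interaction split changed to 2231 higher and 3223 lower, so that 40.9% were higher against 52.7% as deposited. Of the 6598 genes called in SD lungs, 4371 were also called in the interaction. As a whole-transcriptome distance, the root mean square of the log2 differences between group means was 0.321 between SD ZT24 and SD ZT0 and 0.245 between Ctrl ZT24 and Ctrl ZT0. SD ZT24 lay at 0.252 from SD ZT4, 0.269 from SD ZT12 and 0.254 from SD ZT16, all nearer than SD ZT0. It lay farther from SD ZT8 (0.363) and SD ZT20 (0.444).

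**Figure D1:**
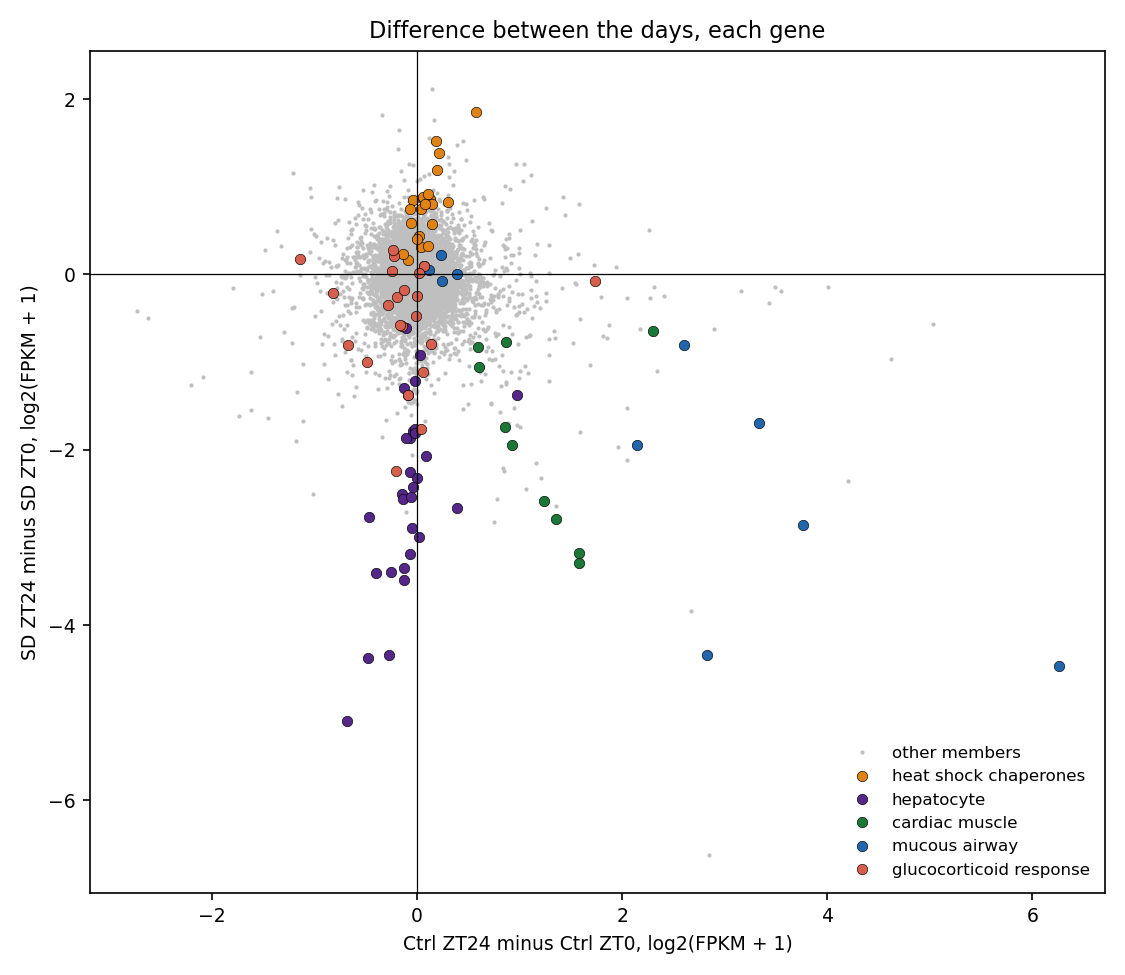
Each point is 1 of the 16713 genes, with the SD ZT24 minus SD ZT0 difference on the y axis and the Ctrl ZT24 minus Ctrl ZT0 difference on the x axis, both in log2(FPKM + 1); 5 gene lists are coloured. Heat shock genes lie above 0 on the SD axis and near 0 on the Ctrl axis, hepatocyte genes lie far below 0 on the SD axis alone, and cardiac and mucous genes mostly lie at the lower right, lower in SD lungs and higher in Ctrl lungs.

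Heat shock chaperones held 4 of the 12 largest rises: Hspa1b, Hspa1a, Hsph1 and Hspa8. Hspa1b, an inducible cytosolic HSP70 (ENSMUSG00000090877, chr17:34956436-34959238, mm10), stood at 12.2, 10.9 and 11.7 FPKM in the SD ZT24 libraries, against 2.31, 3.20 and 2.06 FPKM in the SD ZT0 libraries. Every ZT24 library lay above every ZT0 library, a 3.61-fold rise (log2 1.85 ± 0.0981 SE, adjusted p = 3.06e-16). Slpi, the secretory leukocyte protease inhibitor that shields airways from neutrophil elastase (ENSMUSG00000017002, chr2:164354070-164389095), stood at 97.7, 104 and 86.0 FPKM at SD ZT24, against 26.3, 29.1 and 24.0 FPKM at SD ZT0. The groups were far apart, with a 3.52-fold rise (log2 1.82 ± 0.071 SE, adjusted p = 8.88e-20). In Ctrl lungs Slpi moved the other way, with 31.5, 33.1 and 31.7 FPKM at ZT24 and 42.3, 37.9 and 42.5 FPKM at ZT0 (log2 -0.34). Sprr1a, a small proline-rich protein of squamous and injured epithelium, stood at 12.5, 12.8 and 12.9 FPKM at SD ZT24, against 5.19, 5.08 and 4.08 FPKM at SD ZT0 (log2 1.25, adjusted p = 9.28e-09), without overlap.

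The other large rises were Hspa1a (log2 1.52), Hsph1 (1.38) and Hspa8 (1.19), described below, Ms4a4c (1.18), a leukocyte membrane protein, and Alox15 (1.13), the 12/15-lipoxygenase. Alox15 is the exception in this group, since it rose as much in home-cage lungs. Its libraries stood at 2.89, 3.15 and 2.77 FPKM at SD ZT24, against 0.873, 0.688 and 0.819 FPKM at SD ZT0, and at 2.18, 2.38 and 2.06 FPKM at Ctrl ZT24, against 0.462, 0.477 and 0.508 FPKM at Ctrl ZT0. The log2 differences were 1.13 in SD and 1.11 in Ctrl lungs, with an interaction of 0.02 (adjusted p = 0.921). Hist1h2ad (1.51) and Hist1h2bf (1.43) are replication histone genes whose near-identical copies can share reads, so their values are uncertain. Mir6999 (1.64, adjusted p = 0.0243) and Snord34 (1.30, adjusted p = 0.0194) also passed. Both are short genes inside Dgkz and Rpl13a, with few reads, and each lost its call when 1 of several libraries was left out (adjusted p up to 0.086 for Mir6999 and 0.0953 for Snord34). Hist1h2bf, Mir6999 and Snord34 met the 0.5 FPKM rule through SD ZT24 alone, with means of 0.104, 0.189 and 0.167 FPKM at SD ZT0. That fixes their direction.

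The 12 largest falls were genes of the mucous airway, the liver and the heart. Bpifa1, a secreted airway surface protein (ENSMUSG00000027483, chr2:154142880-154149219), stood at 1.11, 1.13 and 0.885 FPKM in the SD ZT24 libraries, against 189, 211 and 198 FPKM in the SD ZT0 libraries. It fell by 6.62 on the log2 scale (± 0.0724 SE, adjusted p = 7.73e-35), whereas in Ctrl lungs it was higher at ZT24, with 134, 137 and 140 FPKM, against 19.1, 16.6 and 18.7 FPKM at ZT0. Over the whole course its SD means swung between 1.04 FPKM at ZT24 and 770 FPKM at ZT8, and the Ctrl means between 2.17 FPKM at ZT20 and 380 FPKM at ZT4. Reg3g, an antimicrobial lectin, had 0.454, 0.226 and 0.259 FPKM at SD ZT24, against 28.6, 27.9 and 27.0 FPKM at SD ZT0 (log2 -4.46). Scgb3a1, a secretoglobin, had 72.1, 73.5 and 70.1 FPKM at SD ZT24, against 974, 1101 and 1060 FPKM at SD ZT0 (log2 -3.84). Both rose in Ctrl lungs, by 6.26 and 2.67 on the log2 scale, and Bpifb1 fell in SD lungs as well (log2 -4.34). Of the 10 measured mucous airway genes 6 were called lower and 1 higher, Muc16 (0.22), in SD lungs, and 9 higher in Ctrl lungs. Of the 10, 3 met the 0.5 FPKM rule through 1 time only, Reg3g and Agr2 through SD ZT0 and Muc16 through SD ZT24, which fixes their direction, so the count supports nothing by itself. The whole list, with 11 genes of which the rule kept 10, summed to 25.8 to 27.8 FPKM at SD ZT24 and 128 to 140 FPKM at SD ZT0. In Ctrl lungs the whole list summed to 701 to 733 FPKM at ZT24 and 53.9 to 56.7 FPKM at ZT0.

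Liver transcripts made up 7 of the 12 largest falls: Alb, Apoa1, Apoa2, Ahsg, Serpina3k, Mup3 and Ttr. Alb, serum albumin, stood at 0.557, 0.748 and 0.875 FPKM at SD ZT24, against 55.3, 59.97 and 57.9 FPKM at SD ZT0 (log2 -5.09). The others fell by 3.35 to 4.37 on the log2 scale. Apoa1, Ahsg, Serpina3k, Mup3 and Ttr entered the 16713 genes through SD ZT0 alone, as 23 of the 30 measured hepatocyte genes did, which fixes their direction, and the Serpina3 and Mup families hold near-identical copies. Myh6, the atrial myosin heavy chain, stood at 1.03, 1.17 and 1.05 FPKM at SD ZT24, against 19.1, 19.1 and 19.9 FPKM at SD ZT0 (log2 -3.29). Of the 10 measured cardiac genes 3 (Nppa, Mybpc3 and Pln) entered through SD ZT0 alone, which fixes their direction. The other 7 were called lower in SD lungs, by 0.83 (Actc1) to 3.29 (Myh6) on the log2 scale, and all 10 were called higher in Ctrl lungs, where Myl7 had 91.3, 85.3 and 88.6 FPKM at ZT24 and 29.8, 29.0 and 28.1 FPKM at ZT0. The part of dissection in these lists was not tested.

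**Figure D2:**
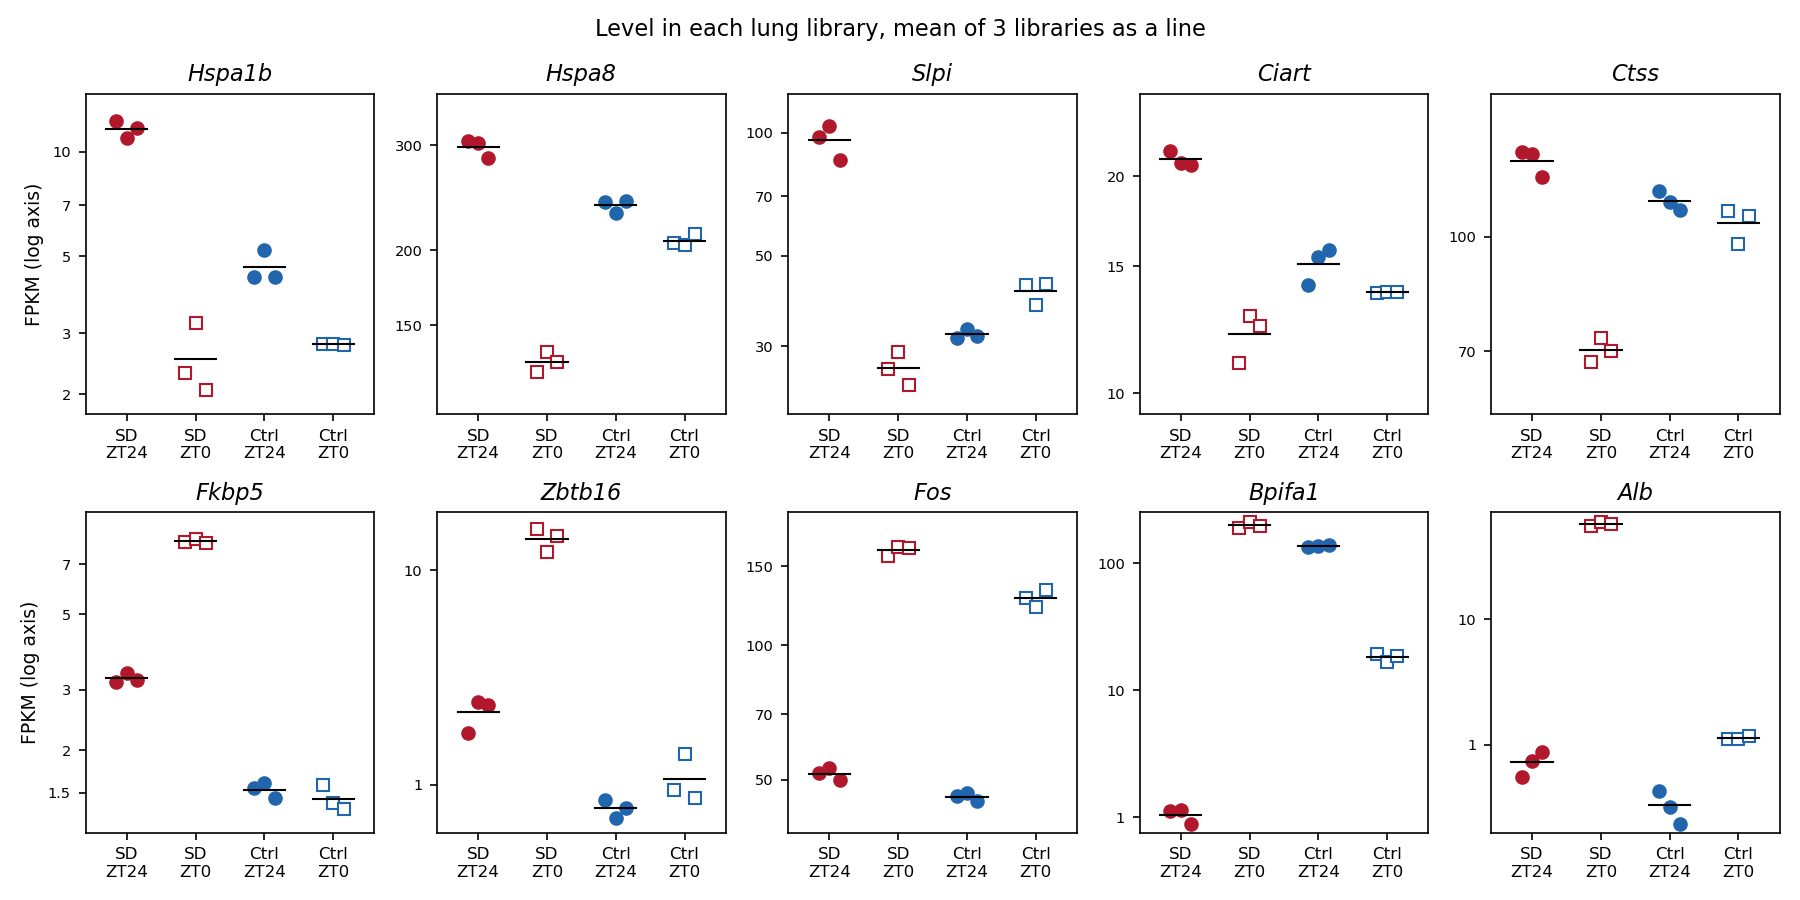
FPKM of 10 genes in each library on log axes, for SD ZT24, SD ZT0, Ctrl ZT24 and Ctrl ZT0, with the mean of 3 libraries as a line. Hspa1b, Hspa8, Slpi, Ciart and Ctss sit higher at SD ZT24 than at SD ZT0 with no overlap, and the other 5 sit lower; Alb at 55.3 to 59.97 FPKM marks SD ZT0 alone.

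Cytosolic and mitochondrial chaperone genes rose almost without exception. Of 23 listed heat shock genes, all measured, 22 rose in SD lungs and none fell, with a median log2 difference of 0.80, beside 20.8% of all genes higher and a median of 0.01. In Ctrl lungs 5 of the 23 rose, with a median of 0.07, and 22 of 23 were called higher in the interaction. The promoters of 4 chaperone genes that rose together are shown here because cytosolic chaperone genes carry inverted repeats of nGAAn, to which heat shock factor 1 binds. Each is the 250 bases before the RefSeq start (GRCm38.p6), printed 5′ to 3′ on the gene's strand, with capitals for the letters GAANNTTC or TTCNNGAA, searched on both strands with overlaps joined. Hspa1b lies at chr17:34959239-34959488 (minus strand), Hsph1 at chr5:149636337-149636586 (minus), Hspb1 at chr5:135887669-135887918 (plus) and Hspe1 at chr1:55087898-55088147 (plus).
Hspa1b: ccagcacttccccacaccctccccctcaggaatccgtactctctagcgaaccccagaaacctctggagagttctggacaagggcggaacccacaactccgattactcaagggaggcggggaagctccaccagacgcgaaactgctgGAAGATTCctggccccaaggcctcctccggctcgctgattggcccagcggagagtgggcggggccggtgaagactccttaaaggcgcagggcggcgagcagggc
Hsph1: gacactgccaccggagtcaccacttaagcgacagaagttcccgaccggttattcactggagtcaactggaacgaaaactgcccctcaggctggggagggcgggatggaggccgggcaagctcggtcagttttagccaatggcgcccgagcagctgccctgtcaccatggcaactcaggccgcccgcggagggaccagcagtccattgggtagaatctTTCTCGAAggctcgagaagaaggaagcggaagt
Hspb1: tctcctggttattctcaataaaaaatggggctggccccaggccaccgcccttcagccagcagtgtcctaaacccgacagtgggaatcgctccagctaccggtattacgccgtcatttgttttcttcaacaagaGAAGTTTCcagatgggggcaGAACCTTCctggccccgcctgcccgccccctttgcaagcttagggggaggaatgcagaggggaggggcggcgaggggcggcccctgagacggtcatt
Hspe1: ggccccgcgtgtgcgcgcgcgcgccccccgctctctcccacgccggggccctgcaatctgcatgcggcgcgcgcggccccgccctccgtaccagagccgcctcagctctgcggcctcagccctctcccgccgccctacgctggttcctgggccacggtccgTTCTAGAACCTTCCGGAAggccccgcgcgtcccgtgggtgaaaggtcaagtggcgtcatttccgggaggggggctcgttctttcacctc
The match in Hspa1b lies 104 bases before the start, and Hspa1a has 1 at the same distance in a nearly identical promoter. That in Hsph1 lies 33 bases before the start. Hspb1 holds 2 matches and Hspe1 holds 3 that overlap. Among the 17 heat shock genes with a promoter entry, 9 held the motif, and 12.8% of all 32841 promoters did. The gene count takes a match in any entry of a gene, and some genes have several entries. The share of all promoters is per entry, so the figures differ in unit. The longer form, with 3 GAA units in alternating orientation, was in 2 of the 17, Hspd1 and Hspe1, and in 0.466% of all promoters. The windows of these 2 genes overlap and hold the same stretch on opposite strands, so it is counted for both genes. The same holds for their matches to the shorter motif. The motif was chosen with the values known, and a match describes letters only.

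Hspa8, the constitutive HSC70 (ENSMUSG00000015656, chr9:40800984-40810087), stood at 305, 302 and 285 FPKM in the SD ZT24 libraries, against 125, 135 and 130 FPKM in the SD ZT0 libraries. The ZT24 libraries were 2.27-fold higher with no overlap (log2 1.19 ± 0.033 SE, adjusted p = 7.19e-24). The Ctrl change was 0.20, with 241, 231 and 242 FPKM at ZT24 and 206, 204 and 213 FPKM at ZT0, and the interaction was 0.99 (adjusted p = 1.69e-17). Hsph1, the HSP110 that swaps nucleotides on HSP70, stood at 14.7, 14.8 and 15.2 FPKM at SD ZT24, against 5.13, 5.21 and 4.98 FPKM at SD ZT0 (2.61-fold, adjusted p = 2.42e-21). Hspa1a, the second inducible HSP70, had 8.20, 7.86 and 8.65 FPKM at SD ZT24, against 2.12, 2.40 and 2.15 FPKM at SD ZT0. Hspa1a and Hspa1b are near-identical copies, so how reads split between them is uncertain, though both rose.

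Co-chaperones and other families followed. Dnaja1, an HSP40 that feeds clients to HSP70, had 27.3, 27.4 and 26.9 FPKM at SD ZT24, against 15.1, 14.4 and 14.1 FPKM at SD ZT0 (log2 0.86). Hsp90ab1, the constitutive HSP90, had 419, 407 and 386 FPKM at SD ZT24, against 217, 236 and 219 FPKM at SD ZT0 (log2 0.85), and the inducible Hsp90aa1 rose by the same 0.85. Hspb1, the small heat shock protein HSP27, had 208, 206 and 182 FPKM at SD ZT24, against 101, 113 and 99.7 FPKM at SD ZT0 (log2 0.92). Serpinh1, the collagen chaperone HSP47, had 183, 184 and 177 FPKM at SD ZT24, against 104, 112 and 106 FPKM at SD ZT0, and the levels at SD ZT0 were the low ones: Ctrl lungs had 206, 222 and 207 FPKM at ZT24 and 217, 223 and 225 FPKM at ZT0. The smallest called rise was Hspa9, the mitochondrial HSP70, at 0.17, and Hspa4l at 0.10 did not pass (adjusted p = 0.138).

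The 2 days can also be placed against the home-cage lungs of the same hour, with comparisons that share libraries with the one above and so are given only as values. For Hspa8 SD minus Ctrl was 0.32 at ZT24 and -0.67 at ZT0 on the log2 scale. Hspa1b was at 1.16 and -0.12, and Serpinh1 at -0.22 and -1.04. Over the 7 times the mean Hspa8 level in SD lungs was 130, 181, 138, 180, 399, 149 and 298 FPKM from ZT0 to ZT24, so ZT24 was second to ZT16 and ZT0 was lowest. In Ctrl lungs ZT16 was highest too, at 493 FPKM. The sum over the list was 1750 to 1868 FPKM at SD ZT24, 998 to 1084 FPKM at SD ZT0, 1514 to 1563 FPKM at Ctrl ZT24 and 1453 to 1495 FPKM at Ctrl ZT0.

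Chaperones of the endoplasmic reticulum rose with them. Of 24 measured genes for folding and stress in this compartment, 18 rose and 4 fell in SD lungs (median log2 0.38), against 5 higher and none lower in Ctrl lungs. The called share in SD lungs was 91.7%, beside 39.5% of all genes. Hspa5, the lumenal HSP70 called BiP, stood at 103, 98.7 and 98.3 FPKM at SD ZT24, against 61.2, 66.1 and 62.8 FPKM at SD ZT0 (log2 0.65 ± 0.0368 SE, adjusted p = 1.83e-15). Pdia6, a disulfide isomerase, had 76.1, 76.0 and 71.2 FPKM at SD ZT24, against 42.3, 47.0 and 45.8 FPKM at SD ZT0 (log2 0.71), and Calr, the lectin chaperone calreticulin, had 124, 118 and 121 FPKM at SD ZT24, against 77.2, 77.9 and 77.3 FPKM at SD ZT0 (log2 0.64). The 4 that fell act in sensing, signalling or degradation: Atf6 (-0.25) and Ern1 (-0.15) are stress sensors, Trib3 (-0.30) is a target of the ATF4 branch and Herpud1 (-0.13) acts in degradation. The libraries of the 2 days overlapped for Trib3 and Ern1, and 2 of the 4 calls were lost without SD ZT0 replicate 3 or without SD ZT24 replicate 3.

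**Figure D3:**
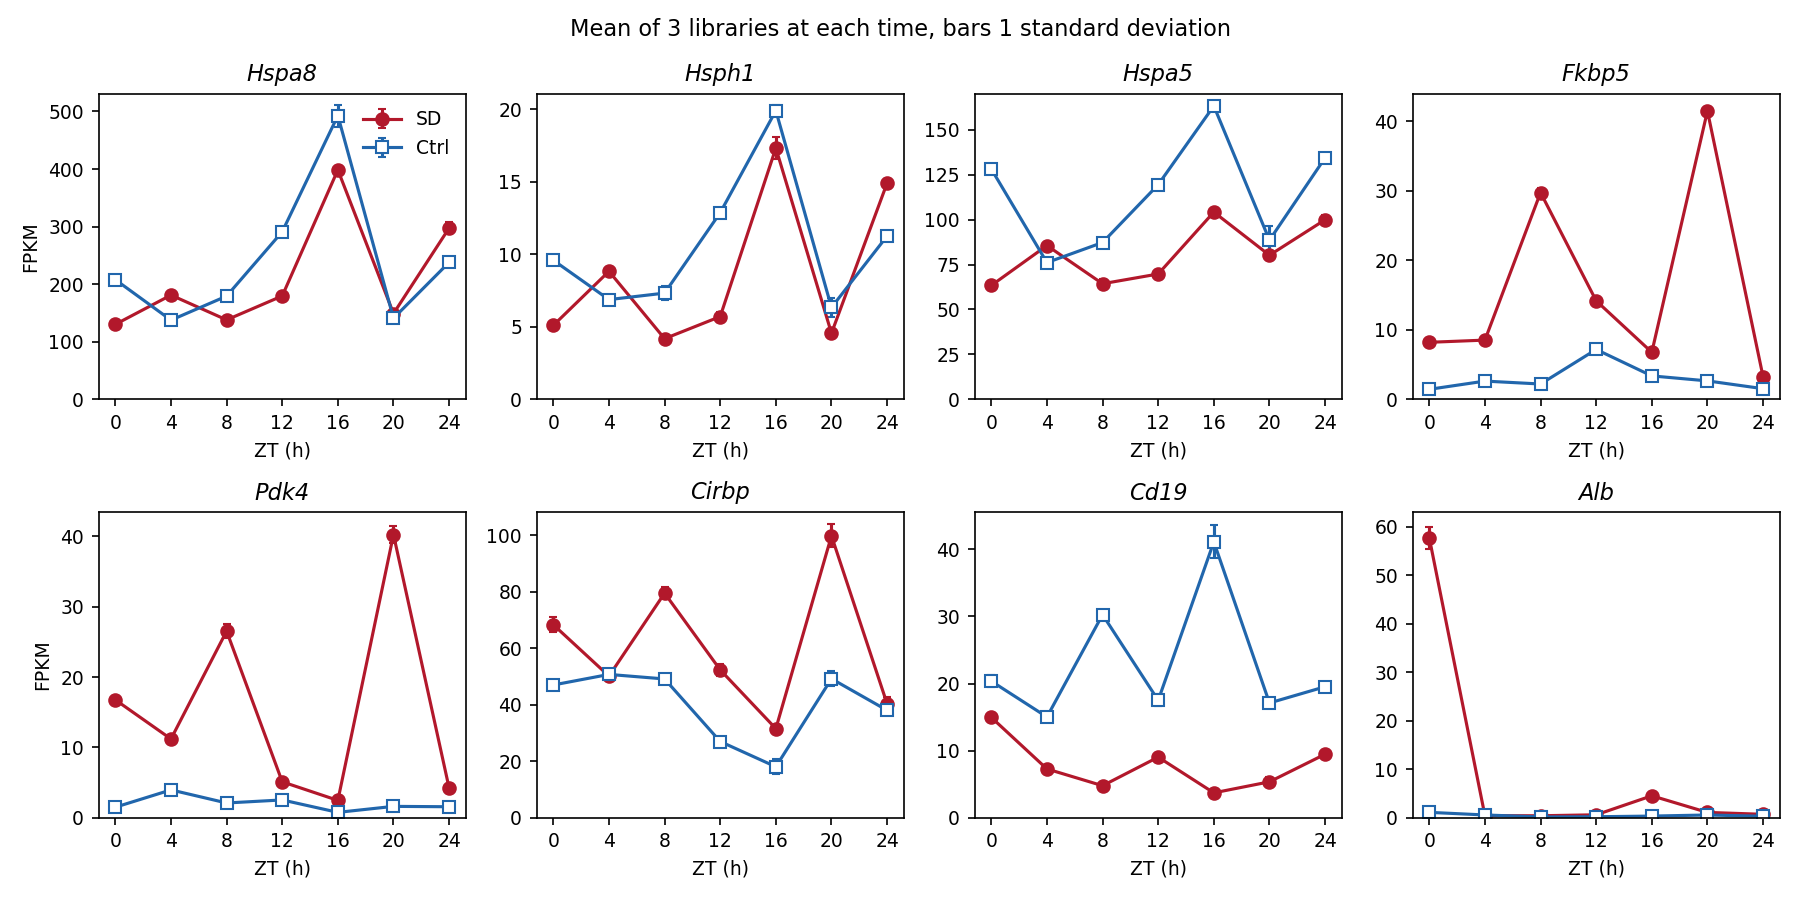
Mean FPKM of 8 genes at each of the 7 times in SD and Ctrl lungs, with bars of 1 standard deviation over 3 libraries. Hspa8 and Hsph1 peak at ZT16 in both groups and are low at SD ZT0, at means of 130 and 5.10 FPKM; Fkbp5 and Pdk4 peak at SD ZT20; Alb is high at SD ZT0 alone.

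Genes for ribosomes and respiration rose slightly and mitochondrially encoded transcripts fell. Of 38 cytosolic ribosomal protein genes 21 rose and none fell (median log2 0.17), for example Rpl13 (0.29) and Rplp1 (0.28). Their called share was 55.3%, beside 39.5% of all genes (20.8% higher and 18.7% lower). With only the libraries compared in the fit, 7 of the 38 rose. Left out in turn, SD ZT0 replicate 1 gave 12 that rose, and SD ZT0 replicate 3, SD ZT24 replicate 1 and SD ZT24 replicate 2 gave 11 each. Many of these genes have processed pseudogenes that can take reads. Of 30 nuclear-encoded respiratory chain genes 18 rose (60%) and none fell (median 0.20), with Uqcrb of complex III (0.38) among those that rose. Of the 13 genes of the mitochondrial genome 8 fell (61.5%) and none rose (median -0.54). Among them mt-Co1, a cytochrome oxidase subunit, had 4100, 4031 and 4355 FPKM at SD ZT24, against 6856, 6617 and 6676 FPKM at SD ZT0 (log2 -0.69), without overlap. With SD ZT24 replicate 1 or replicate 3 left out, 5 of the 13 fell.

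Core clock genes differed little from one day to the next when set against their own range within the day. Of 19 genes, all measured, 3 rose and 6 fell in SD lungs (median log2 -0.06). That is 9 of 19 (47.4%) against a background of 39.5%, so the share called was not below that of all genes. Set against each gene's own range over SD ZT0 to ZT20, the size of the difference had a median ratio of 0.0765 over the clock genes, 0.371 over all 16713 genes and 0.774 over the heat shock genes. In Ctrl lungs those ratios were 0.0789, 0.213 and 0.106. Clock genes were listed as genes of the daily cycle. Their SD ranges are wide in members such as Dbp (3.70) and Nr1d1 (3.19), though narrow in Rora (0.56). A small ratio therefore follows in part from the choice of the list, and it supports nothing by itself. Among the activators, Arntl (log2 -0.14, adjusted p = 0.0506) and Npas2 (-0.17, adjusted p = 0.0638) missed the threshold. Clock fell by 0.18, a call lost without SD ZT0 replicate 1 (adjusted p = 0.0801) or SD ZT24 replicate 1 (adjusted p = 0.0698). Among their targets, Dbp (-0.06), Per3 (-0.02), Hlf (0.10) and Cry1 (0.13) did not pass, although Dbp ranges over 3.70 on the log2 scale within the day.

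Ciart, a repressor of the CLOCK and BMAL1 pair (ENSMUSG00000038550, chr3:95878503-95882251), had the largest rise of the list. It stood at 21.7, 20.9 and 20.8 FPKM in the SD ZT24 libraries, against 11, 12.8 and 12.4 FPKM in the SD ZT0 libraries. Its ZT24 libraries were 1.69-fold higher with no overlap (log2 0.76 ± 0.0776 SE, adjusted p = 2.45e-09), while Ctrl lungs differed by 0.12 (adjusted p = 0.35). Its range within the SD day is narrow, 0.68 on the log2 scale, so the ratio of its day-to-day difference to it was 1.11. It shares its span with C920021L13Rik on the other strand, which did not pass (0.05), and the strand setting of the counting was not stated. Its promoter is shown because it holds the E-box CACGTG, to which CLOCK and BMAL1 bind, 3 times (capitals; both strands read alike, as the motif is its own reverse complement). It is the 250 bases before the RefSeq start at chr3:95882229-95882478 (GRCm38.p6, minus strand), 5′ to 3′.
Ciart: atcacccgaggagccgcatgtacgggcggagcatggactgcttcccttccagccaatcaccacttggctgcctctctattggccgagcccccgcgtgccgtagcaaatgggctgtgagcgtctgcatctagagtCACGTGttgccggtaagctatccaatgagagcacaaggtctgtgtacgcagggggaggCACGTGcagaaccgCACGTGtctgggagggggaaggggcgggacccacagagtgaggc
Of 16 clock genes with a promoter entry 5 held CACGTG (Per1, Cry1, Ciart, Tef and Bhlhe41), and 6.02% of all promoters did. Here too the genes are counted by a match in any of their entries and the share is per entry.

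The REV-ERB genes fell. Nr1d1, REV-ERB alpha, stood at 6.66, 7.18 and 7.06 FPKM at SD ZT24, against 11.2, 11.6 and 11.7 FPKM at SD ZT0 (log2 -0.65, adjusted p = 2.63e-11), and its span overlaps Thra, so reads there are uncertain. It also fell in Ctrl lungs (-0.37), and both levels are low beside the SD ZT8 mean of 62.9 FPKM. Nr1d2 fell by 0.25, Rora by 0.21, Cry2 by 0.13 and Tef by 0.09, and Tef lost its call without SD ZT0 replicate 1 (adjusted p = 0.28) or SD ZT24 replicate 1 (adjusted p = 0.215). Per1, a repressor that glucocorticoids also induce, is the clock gene whose days differed most between the conditions. It had 41.1, 40.0 and 40.4 FPKM at SD ZT24, against 34.5, 36.3 and 36.4 FPKM at SD ZT0, a rise of log2 0.17 (adjusted p = 0.00665). In Ctrl lungs it had 5.76, 5.58 and 5.78 FPKM at ZT24, against 13.6, 14.2 and 13.6 FPKM at ZT0 (log2 -1.14), and the interaction was 1.32. Per2 rose in both, by 0.21 in SD and 0.48 in Ctrl lungs, though its SD call was lost without SD ZT24 replicate 3 (adjusted p = 0.0514).

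**Figure D4:**
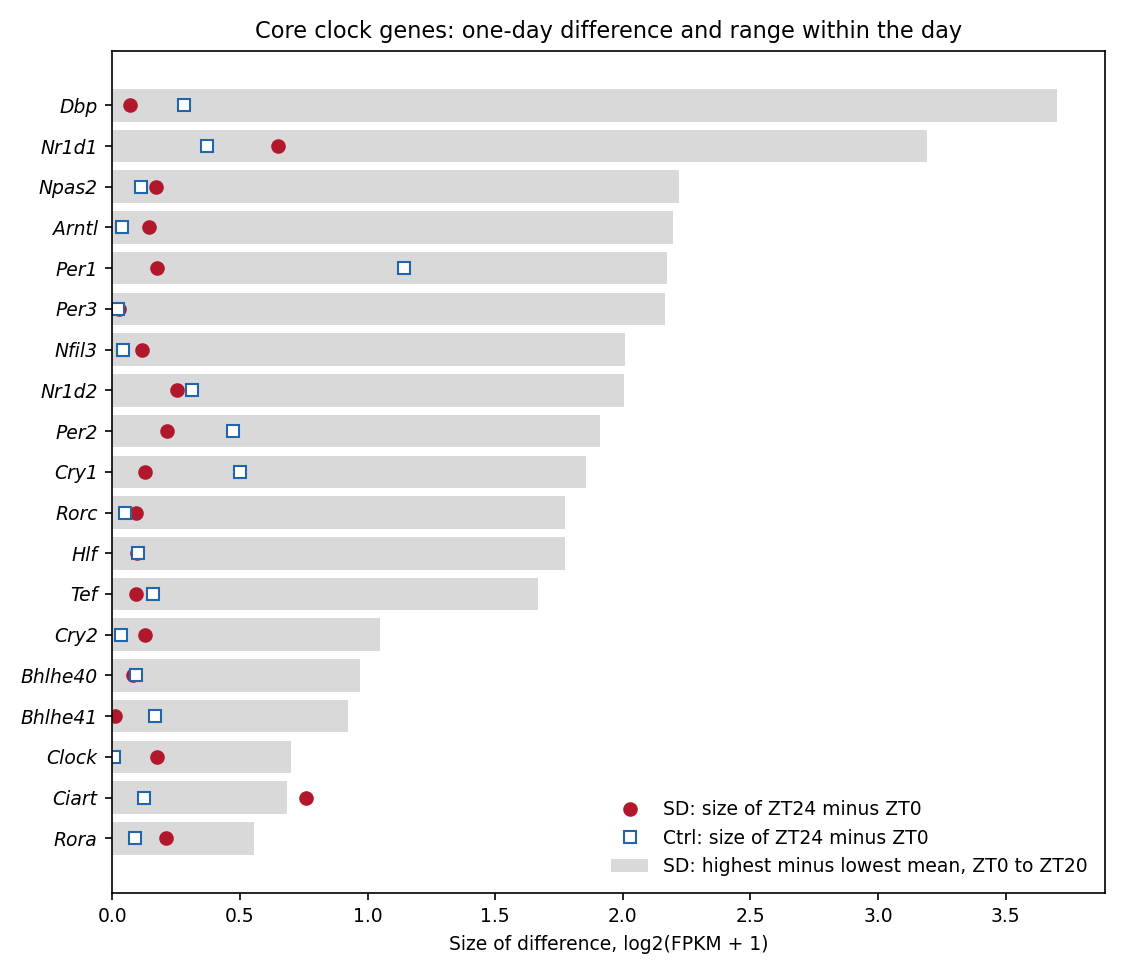
For each of 19 core clock genes the grey bar is the range of the SD means from ZT0 to ZT20 and the points are the sizes of the ZT24 minus ZT0 difference in SD and Ctrl lungs, all in log2(FPKM + 1). The bars reach 3.70 for Dbp; the largest differences are Ciart (0.76) and Nr1d1 (0.65) in SD lungs and Per1 (1.14), Cry1 (0.50), Per2 (0.47) and Nr1d1 (0.37) in Ctrl lungs.

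Glucocorticoid-responsive genes fell as a group, with the strongest falls in the classical targets. Of 22 genes 14 fell and 3 rose in SD lungs (median log2 -0.30), against 9 lower and 1 higher in Ctrl lungs. That is 77.3% called in SD lungs, beside 39.5% of all genes. The list shares Tat with the hepatocyte list, and the part of liver RNA in these falls was not tested. Zbtb16, a zinc finger repressor (ENSMUSG00000066687, chr9:48654297-48836222), stood at 1.74, 2.43 and 2.36 FPKM at SD ZT24, against 15.6, 12.1 and 14.4 FPKM at SD ZT0 (log2 -2.24 ± 0.0931 SE, adjusted p = 4.64e-19). Fkbp5, the co-chaperone that dampens the glucocorticoid receptor, stood at 3.16, 3.37 and 3.22 FPKM at SD ZT24, against 8.17, 8.31 and 8.12 FPKM at SD ZT0 (log2 -1.11, adjusted p = 1.16e-19). Neither pair of groups overlapped. In Ctrl lungs Fkbp5 was level, with 1.55, 1.60 and 1.44 FPKM at ZT24 and 1.58, 1.40 and 1.35 FPKM at ZT0, so SD ZT24 remained above the home-cage libraries while lying nearer to them than SD ZT0 did. Dusp1, a MAP kinase phosphatase, had 182, 177 and 181 FPKM at SD ZT24, against 311, 322 and 310 FPKM at SD ZT0 (-0.80), but it fell in Ctrl lungs too (-0.67). Those that rose were Per1, Cebpb (0.28) and Cebpd (0.21), the last 2 C/EBP transcription factors.

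Genes of fatty acid use in the fasted state fell alongside. Of 15 measured PPAR alpha targets 11 fell and 1 rose, Vnn1 (0.25), with a median of -0.65, against 4 lower and 3 higher in Ctrl lungs. The share called in SD lungs was 80%, beside 39.5% of all genes. Pdk4, the kinase that turns off pyruvate dehydrogenase, had 4.23, 3.74 and 4.71 FPKM at SD ZT24, against 17.3, 16.3 and 16.6 FPKM at SD ZT0 (log2 -1.77, adjusted p = 3.32e-20). Cpt1a, which admits long-chain fatty acids to mitochondria, had 20.0, 21.3 and 21.3 FPKM at SD ZT24, against 39.6, 37.5 and 39.4 FPKM at SD ZT0 (-0.86), and rose by 0.29 in Ctrl lungs. Of 28 measured genes of fatty acid oxidation, 12 fell and 2 rose (median -0.06), a called share of 50% beside 39.5% of all genes. The falls were concentrated in some members, such as Acaa1b (-0.62), Eci2 (-0.57) and Acadl (-0.47), and Eci1 (0.27) and Acsl5 (0.25) rose. The part of liver RNA in these falls was not tested.

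Of 21 cholesterol synthesis genes 9 rose and 3 fell (57.1% called), with Dhcr7 (0.49) and Msmo1 (0.32) among the risers, against 1 higher and 1 lower in Ctrl lungs. Of 15 genes of fatty acid synthesis 6 rose and 1 fell, a called share of 46.7% that is near the 39.5% of all genes, and 6 rose in Ctrl lungs too. Scd1, the stearoyl-CoA desaturase, had 387, 386 and 372 FPKM at SD ZT24, against 268, 267 and 261 FPKM at SD ZT0 (log2 0.52), with no overlap. Cold-inducible RNA-binding protein, Cirbp, whose level falls as temperature rises, had 42.3, 40.9 and 37.8 FPKM at SD ZT24, against 65.5, 70.7 and 68.8 FPKM at SD ZT0 (-0.75), and Rbm3 fell by 0.22. Both also fell in Ctrl lungs, Cirbp by 0.30.

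Of 23 immediate early genes 11 fell and 4 rose in SD lungs (median log2 -0.15), and 17 fell and none rose in Ctrl lungs (median -0.70). The called shares were 65.2% in SD and 73.9% in Ctrl lungs, beside 39.5% and 12.3% of all genes. In the interaction 12 were called higher and 1 lower. The 3 given here fell in both conditions. Fos, the AP-1 subunit induced within minutes of a stimulus, had 51.7, 53.1 and 49.9 FPKM at SD ZT24, against 158, 165 and 165 FPKM at SD ZT0 (log2 -1.64). The groups did not overlap, and its Ctrl change was -1.45. Egr1, a zinc finger factor, changed by -1.54 in SD and -1.62 in Ctrl lungs, and Nr4a1, an orphan nuclear receptor, by -1.62 in SD and -1.73 in Ctrl lungs. Those that rose in SD lungs were Nr4a3 (0.39), which entered through SD ZT24 alone, Klf2 (0.23), Ier3 (0.18) and Fosl2 (0.17).

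Lymphocyte transcripts were lower at SD ZT24. All 15 measured T cell genes fell (median log2 -0.50), and 12 of 13 measured B cell genes did (median -0.39), beside 18.7% of all genes. In Ctrl lungs none of either list fell. Trac, the constant region of the T cell receptor alpha chain, had 4.07, 3.87 and 4.42 FPKM at SD ZT24, against 8.30, 8.11 and 8.00 FPKM at SD ZT0 (-0.84). Cd79b, a B cell receptor signalling chain, had 16.6, 14.8 and 15.8 FPKM at SD ZT24, against 27.0, 27.5 and 25.9 FPKM at SD ZT0 (-0.73). Summed over the listed genes, measured or not, T cell levels were 39.7 to 42.2 FPKM at SD ZT24 and 64.3 to 69.3 FPKM at SD ZT0. B cell levels summed in this way were 119 to 123 FPKM at SD ZT24 and 175 to 182 FPKM at SD ZT0. Of 9 NK and cytotoxic genes 5 fell and none rose (55.6% called, beside 39.5% of all genes), with Klrd1 (-0.55) and Nkg7 (-0.49) among them. In Ctrl lungs 4 of the 9 fell as well. Without SD ZT24 replicate 1 or replicate 3 the SD count was 3. Of 10 plasma cell genes 7 fell, of which Ighg2b entered through SD ZT0 alone, and Xbp1 (0.45), which also serves the unfolded protein response, rose.

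Red cell transcripts fell too, and granulocyte transcripts did so in part. All 9 measured erythroid genes fell (median -0.78): Alas2, the first enzyme of haem synthesis in red cells, had 14.8, 16.5 and 18.1 FPKM at SD ZT24, against 33.6, 34.8 and 35.3 FPKM at SD ZT0 (-1.03). In Ctrl lungs all 13 neutrophil genes rose, whereas in SD lungs 6 fell and none rose. That called share in SD lungs, 46.2%, is near the 39.5% of all genes. The falls lay mainly in granule genes of immature neutrophils, such as Ngp, with 10.3, 8.79 and 8.25 FPKM at SD ZT24, against 34.7, 38.3 and 38.7 FPKM at SD ZT0 (-1.92), Ltf (-1.69) and Camp (-1.46). Ltf is also in the mucous airway list, and it rose by 3.33 in Ctrl lungs, where Ngp rose by 0.94. Which cells its fall came from was not tested. Blood retained in the lung was not measured, and its part was not tested.

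Interferon response and MHC class I genes were mostly higher, and MHC class II genes were mixed. Of 26 interferon response genes 15 rose and 2 fell (median 0.20), against 1 higher and 10 lower in Ctrl lungs, and 18 were called higher in the interaction. Their called share in SD lungs was 65.4%, beside 39.5% of all genes. Bst2 (0.65), Gbp2 (0.61) and Oas2 (0.53) led, and Gbp4 (-0.56) and Rsad2 (-0.51) were the 2 that fell. Of 13 genes of MHC class I presentation 9 rose (69.2%) and none fell, and 8 fell in Ctrl lungs. B2m, the class I light chain, had 679, 674 and 737 FPKM at SD ZT24, against 556, 570 and 560 FPKM at SD ZT0 (0.31), and Psmb10, an immunoproteasome subunit, rose by 0.67. Of 11 MHC class II genes 5 rose and 3 fell (72.7% called). Ctss, the protease that trims the invariant chain in myeloid cells, had 130, 130 and 121 FPKM at SD ZT24, against 67.6, 72.9 and 70.1 FPKM at SD ZT0 (0.84), while H2-Oa (-0.69) and H2-Ob (-0.60), known from B cells, fell. The count of 5 became 3 under total-read scaling and without SD ZT0 replicate 1 or SD ZT24 replicate 2.

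Myeloid cell lists split. Of 12 alveolar macrophage genes 9 rose and none fell (median 0.23), a called share of 75% beside 39.5% of all genes. In Ctrl lungs 4 of them were called higher and 1 lower, and the interaction called 6 higher and 2 lower. Chil3, the secreted lectin Ym1, had 471, 486 and 482 FPKM at SD ZT24, against 302, 325 and 312 FPKM at SD ZT0 (0.61). Of 12 monocyte genes 6 rose, F13a1 (0.68) and the chemokine receptor Ccr2 (0.61) among them, and 2 fell, of which Nr4a1 is also an immediate early gene. The called share was 66.7%, and in Ctrl lungs 4 monocyte genes were called higher and 1 lower. The interaction called 4 higher and 1 lower. Of 9 dendritic genes 4 rose and 4 fell (88.9% called). Cd209a, of monocyte-derived dendritic cells, had 6.20, 6.51 and 7.36 FPKM at SD ZT24, against 2.95, 2.61 and 2.76 FPKM at SD ZT0 (1.03), and of the 4 measured genes of conventional type 1 dendritic cells Xcr1, Clec9a and Irf8 fell and Batf3 rose (0.50). Of 29 measured chemokine and cytokine genes 14 rose and 2 fell, Ccl5 (-0.72), made by T and NK cells, and Lif (-0.32). Their called share was 55.2%, beside 39.5% of all genes.

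Mesothelial and endothelial transcripts were higher. Of 8 mesothelial genes 7 rose (87.5%) and none fell (median 0.49), and Muc16 entered through SD ZT24 alone. In Ctrl lungs 2 mesothelial genes were called higher and 3 lower. Upk3b, a membrane protein of the pleural surface, had 43.9, 43.5 and 41.4 FPKM at SD ZT24, against 19.7, 21.3 and 21.1 FPKM at SD ZT0 (1.02), and fell in Ctrl lungs (-0.42). Msln, mesothelin, had 87.3, 89.3 and 83.7 FPKM at SD ZT24, against 50.3, 52.3 and 53.7 FPKM at SD ZT0 (0.72). The list summed to 325 to 352 FPKM at SD ZT24 and 224 to 243 FPKM at SD ZT0, and how much pleura each collection held was not tested. Of 18 endothelial genes 14 rose and 1 fell, Ednrb (-0.21), a called share of 83.3% beside 39.5% of all genes. In Ctrl lungs 7 of the 18 were called higher and 3 lower, and the interaction called 10 higher and 2 lower. Eng, the endoglin co-receptor of TGF-beta, had 275, 272 and 271 FPKM at SD ZT24, against 167, 176 and 167 FPKM at SD ZT0 (0.68).

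Alveolar and airway epithelial lists were mixed. The called share in SD lungs was 50% in each of the type 1, type 2 and ciliated lists, near the 39.5% of all genes. Of 12 alveolar type 1 genes 6 rose and none fell, and 8 fell in Ctrl lungs. Aqp5, the water channel of type 1 cells, had 155, 158 and 143 FPKM at SD ZT24, against 101, 114 and 105 FPKM at SD ZT0 (0.50). Of 12 type 2 genes 2 rose and 4 fell, with Slc34a2, the phosphate transporter, at -0.45 and Abca3, the lipid pump of lamellar bodies, at -0.31. Sftpc passed as higher (0.27), but its libraries of the 2 days overlapped. Of 10 club cell genes 5 rose and 3 fell, Scgb3a1, Chad (-0.54) and Scgb3a2 (-0.27), against 3 higher and 5 lower in Ctrl lungs. Scgb1a1, the club cell secretory protein, had 90010, 89426 and 85655 FPKM at SD ZT24, against 60273, 74254 and 65964 FPKM at SD ZT0 (0.41). Of 14 ciliated cell genes 6 fell and 1 rose, Tppp3 (0.32), and the 6 became 3 without any 1 of SD ZT0 replicates 1 and 3 and SD ZT24 replicates 1 and 2. Among 17 genes for P450 enzymes and detoxification 5 rose and 7 fell: Cyp1a1, the target of the aryl hydrocarbon receptor, had 118, 118 and 113 FPKM at SD ZT24, against 61.1, 62.8 and 60.7 FPKM at SD ZT0 (0.91), whereas Cyp2e1, abundant in liver, fell by 2.08.

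Matrix genes were lower. Of 34 extracellular matrix genes 21 fell and 1 rose, Col6a3 (0.13), with a median of -0.21, against 8 higher and 5 lower in Ctrl lungs. The called share in SD lungs was 64.7%, beside 39.5% of all genes. Lox, the collagen cross-linking oxidase, fell by 0.74, Mmp2, a gelatinase, by 0.65 and Lamc1, a basement membrane laminin, by 0.38. Cyr61, a YAP target, fell by 0.68 in SD and by 0.90 in Ctrl lungs. Fibroblast genes were split (78.6% called), with 5 of 14 higher, such as Dcn (0.44), and 6 lower, such as Npnt (-0.46) and Pdgfra (-0.35). The 5 became 3 under total-read scaling or without SD ZT24 replicate 1. Lists of the cell cycle and damage responses were mixed. Of 27 proliferation genes 6 rose, including Pcna (0.30), and 9 fell, including Mki67 (-0.39), a called share of 55.6%. Of 19 p53 targets 3 rose and 9 fell, a called share of 63.2%. Of 19 NRF2 targets 13 rose and 2 fell (78.9% called), with Prdx1 (0.41), a peroxiredoxin, among the higher.

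The day-to-day change differed most between SD and Ctrl lungs for the genes that follow. The largest positive interactions belonged to Slpi (2.16), Hist1h2bf (1.62), Scgb1c1 (1.55), Plac8 (1.49) and Upk3b (1.44). Hist1h2bf entered through SD ZT24 alone, which fixes the direction of its SD change. Plac8, a cysteine-rich leukocyte protein, had 20.5, 19.0 and 19.9 FPKM at SD ZT24, against 9.27, 9.82 and 9.81 FPKM at SD ZT0, and 32.3, 30.7 and 31.2 FPKM at Ctrl ZT24, against 45.8, 44.6 and 46.3 FPKM at Ctrl ZT0. Its SD libraries lay below all Ctrl libraries on both days and moved toward them. The largest negative interactions belonged to Reg3g (-10.72), Bpifa1 (-9.47), Bpifb1 (-7.17), Tff2 (-6.63) and Clca1 (-6.55), all secreted airway genes. Reg3g and Clca1 entered through SD ZT0 alone, with means of 0.313 and 0.0060 FPKM at SD ZT24. That fixes the direction of their SD change. Reg3g stood at 320, 321 and 333 FPKM at Ctrl ZT24, against 3.53, 3.04 and 3.21 FPKM at Ctrl ZT0.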

How the data were processed

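RNA-seq of mouse lung was compared between 3 SD ZT24 and 3 SD ZT0 libraries, with the 3 Ctrl ZT24 and 3 Ctrl ZT0 libraries beside them. Per the labels' protocols, TRIzol was used for the RNA and the NEBNext Ultra kit for the libraries. The authors deposited FPKM values per gene for all 42 libraries together. Alignment to mm10 with HISAT2 2.0.5 and featureCounts 1.5.0-p3 are in the submitters' processing notes; their settings and use of strand were not stated. Low values were whole multiples of what 1 read is worth (99.94% to 100% within 0.1 of a whole number), so reads per library could be recovered and a count-based fit (limma voom) was run as an alternative. There were 27 gene symbols that a spreadsheet had turned into dates, and these were restored. Gene counts can be split between near-identical copies, and overlapping genes can share reads.

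Values were tested as log2(FPKM + 1) with limma 3.58.1 (lmFit and eBayes with trend) in R 4.3.3, over 14 group means and 42 libraries, which share 1 estimate of the spread. The adjustment was Benjamini-Hochberg over the 16713 genes with a mean of at least 0.5 FPKM in the 6 libraries, the threshold was 0.05 and the test was two-sided. Fold changes on this scale understate the change of low genes. The contrasts were SD ZT24 minus SD ZT0, Ctrl ZT24 minus Ctrl ZT0, their difference (the interaction) and SD minus Ctrl at each time. The fit was tested on simulated data. Replicates were not identical (chi-square per degree of freedom of 3.47 to 9.48 between libraries of a group). Genes named are the 12 largest called rises and the 12 largest falls with a mean of at least 1 FPKM over the 6 libraries and groups that do not overlap (predicted genes, pseudogenes and receptor segments passed over), the 5 largest interactions in each direction, all clock genes, and from each other list up to 4 genes in each direction with the smallest p, plus members against its majority. The hepatocyte list and further genes were named after values were seen. The genes and lists were chosen with earlier results of these data known. Motifs were searched in RefSeq promoters (GRCm38.p6), and promoters were matched by symbol. Figures were drawn with matplotlib 3.10.9 with Python 3.11.15, pandas 2.3.3, numpy 2.4.6 and data.table (version 1.17.8).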

Additional observations from a re-analysis of the deposited data

Results flagged for a closer look

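The SD ZT24 minus SD ZT0 difference was not the same as the Ctrl ZT24 minus Ctrl ZT0 difference, by the limma interaction over all genes, for these 34 of the genes named as largest rises, largest falls, largest interactions or clock genes; genes of other lists also passed and are not repeated. Values are the SD change minus the Ctrl change on the log2 scale, and a positive value means a larger rise or a smaller fall in SD lungs.

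Among the largest rises these were Slpi (2.16), Hist1h2bf (1.62), Hist1h2ad (1.36), Hspa1a (1.34), Ms4a4c (1.34), Sprr1a (1.29), Hspa1b (1.28), Hsph1 (1.17) and Hspa8 (0.99), with Scgb1c1 (1.55), Plac8 (1.49) and Upk3b (1.44) added for the size of the interaction alone. Hist1h2bf entered through SD ZT24 alone, which fixes the direction of its SD change.

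Airway secretory genes had the largest negative values: Reg3g (-10.72), Bpifa1 (-9.47), Bpifb1 (-7.17), Tff2 (-6.63), Clca1 (-6.55) and Scgb3a1 (-6.51). They were lower at SD ZT24 than at SD ZT0 and higher at Ctrl ZT24 than at Ctrl ZT0, and their collection and their condition cannot be told apart. Reg3g and Clca1 entered through SD ZT0 alone, which fixes the direction of their SD change.

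The liver transcripts Alb (-4.41), Apoa2 (-4.07), Apoa1 (-3.89), Ahsg (-3.35), Ttr (-3.22), Mup3 (-3.14) and Serpina3k (-3.00) were negative beside a hepatocyte list that summed to 10.5 to 12.1 FPKM at SD ZT24, against 252 to 292 FPKM at SD ZT0. Of the 30 measured genes of that list 23 entered through SD ZT0 alone, where they are high, so these values are a description. The cardiac gene Myh6 stood at -4.87.

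Of the clock genes, Per1 (1.32) and Ciart (0.64) were positive, and Cry1 (-0.37), Npas2 (-0.28), Nr1d1 (-0.28), Per2 (-0.27), Bhlhe40 (-0.17) and Cry2 (-0.16) were negative. The negative ones were all under 0.4 in size.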

How the results depend on the processing

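The settings tried were 22. Single genes were followed over them only for the 24 largest rises and falls, the 19 clock genes and the 10 interaction genes, and none of these reversed. Other genes named in the text were not followed one by one. The balance of higher against lower calls did turn with the scaling, as given above. Of the values for single genes and the counts per gene list, 2328 held, 78 moved, 13 became called and 23 lost their call. All 10 genes named for the interaction and 22 of the 24 largest rises and falls kept their call throughout, the exceptions being Mir6999 and Snord34; of the 19 clock genes 11 kept their side of the threshold. The 22 heat shock rises held under every setting. Counts of genes at least 2-fold different also moved. With a pseudocount of 0.1 they were 77 higher and 319 lower in SD lungs, 139 and 54 in Ctrl lungs and 146 and 455 in the interaction. With limma voom on recovered reads they were 90 and 367, 150 and 67, and 172 and 500. In Ctrl lungs the 2-fold rises numbered 125 with no filter and 124 with the filter over 42 libraries. With only the libraries compared in the fit, Ctrl lungs had 1059 called genes (565 higher, 494 lower).

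The replicate numbers do not pair the libraries: correlations of same-numbered deviations between the 2 days were -0.106, 0.065 and 0.033 in SD lungs. With a replicate block and only the libraries compared, 3873 genes were called in SD lungs (2186 higher, 1687 lower) and 500 in Ctrl lungs (294 higher, 206 lower). Array weights gave 7599 in SD lungs.

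Leaving out in turn each library of the contrast itself gave 5309 to 6434 called genes in SD lungs (2786 to 3392 higher, 2523 to 3044 lower; at least 2-fold 27 to 32 higher and 149 to 175 lower). In Ctrl lungs it gave 1444 to 1754 (771 to 924 higher, 673 to 830 lower; 2-fold 78 to 84 and 19 to 27). In the interaction it gave 4642 to 5603 (2421 to 2961 higher, 2221 to 2642 lower; 2-fold 59 to 71 and 230 to 250).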

Other observations

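Several rises past those of the report were picked after their values were seen, from the genes with the largest changes. The p-values printed with them come from the values used to pick them, so those p-values add no support. Sdf2l1, an endoplasmic reticulum protein that works with BiP, averaged 17.0 FPKM at SD ZT24 and 7.38 FPKM at SD ZT0 (log2 1.11 ± 0.0954 SE, adjusted p = 5.52e-11), against 0.31 in Ctrl lungs. Cldn15, a claudin of tight junctions, averaged 13.6 FPKM at SD ZT24 and 6.29 FPKM at SD ZT0 (adjusted p = 2.11e-12) and was lower at Ctrl ZT24 (log2 -0.26). Nkain4, a sodium pump interacting protein, averaged 45.3 FPKM at SD ZT24 and 23.9 FPKM at SD ZT0 (log2 0.89), with the same opposite sign in Ctrl lungs (-0.28). Wisp2, a matricellular protein, averaged 27.6 FPKM at SD ZT24 and 14.4 FPKM at SD ZT0 (log2 0.89), beside 34.8 FPKM at Ctrl ZT24 and 34.6 FPKM at Ctrl ZT0. Tuba1b, an alpha tubulin with near-identical family members, averaged 185 FPKM at SD ZT24 and 104 FPKM at SD ZT0 (log2 0.83).

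Among host defence genes, Ifitm3, an interferon-induced block to viral entry, averaged 520.02 FPKM at SD ZT24 and 308 FPKM at SD ZT0 (log2 0.76), while Ctrl lungs had 426 FPKM at ZT24 and 456 FPKM at ZT0 (-0.10, adjusted p = 0.384). Saa3, an acute phase protein, rose in both conditions, by 0.81 in SD lungs and 1.58 in Ctrl lungs, and the interaction was -0.77 (adjusted p = 0.00558). Lst1, a leukocyte transcript, averaged 14.4 FPKM at SD ZT24 and 6.46 FPKM at SD ZT0 (log2 1.08).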
